A study of Mus musculus with 59 samples.

Results

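The 9 genes described here make, store and break down glycogen in brown adipose tissue (BAT). They are Ugp2, Gyg, Gys1, Gys2 and Gbe1 of the synthetic arm, the phosphorylases Pygl and Pygb, and the phosphatase targeting subunits Ppp1r3b and Ppp1r3c. They were taken by name from the 3 tables of the series, which list 55341 genes each, and all 9 were found in each table. The tables hold RNA-seq counts of the BAT of 59 male C57BL/6J mice aged 8 to 12 weeks, with 1 library per mouse. In the hormone experiment every mouse had received propylthiouracil (PTU), a drug that blocks thyroid hormone synthesis, and the treated mice were then injected with thyroid hormone (TH, given as T3 and T4). There were 4 wild-type (WT) mice on PTU alone, 4 WT mice each at 3, 6, 12 and 24 h after TH, 5 BATKO mice on PTU alone and 5 BATKO mice at 24 h after TH. In the temperature experiment, 3 control (CTRL) and 4 BATKO mice were kept at 4 °C and 4 CTRL and 5 BATKO mice at 30 °C. The name of that table, which the sample descriptions repeat, gives 24 h. In the diet experiment, 4 CTRL and 3 BATKO mice received a high-fat diet (HFD), for 3.5 days by the table name in their descriptions, and 4 CTRL and 2 BATKO mice received chow. The genetic change of the BATKO mice, the promoter that drives it and the relation of CTRL to WT mice are not described in the sources used here, so that no targeted gene could be checked.

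Glycogen is the branched glucose polymer in which animal cells store carbohydrate. Its synthesis uses UDP-glucose, starts on the protein glycogenin, is extended by glycogen synthase and is branched by a dedicated enzyme, while phosphorylase releases glucose 1-phosphate from the chain ends. Protein phosphatase 1, brought to the particle by glycogen-targeting subunits, activates synthase and inactivates phosphorylase. Synthase and phosphorylase each exist as isoforms named after the tissue in which they predominate, with muscle (Gys1, Pygm), liver (Gys2, Pygl) and brain (Pygb) types. Brown fat is known to keep a glycogen store that changes with cold exposure and refeeding.

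Total counts per mouse ranged from 7612059 to 18073627, and the genes of the mitochondrial genome took 39.2 to 55.7% of it. All 6 brown adipocyte markers and all 4 adipocyte markers were detected in every mouse, whereas the 3 liver markers Alb, Apoa1 and Ttr summed to at most 0.849 CPM (counts relative to the library total scaled by the TMM factor) in any library. The 8 skeletal muscle markers varied by library, from 0.639 to 7931 summed CPM, and 9 libraries exceeded 5 times the median of their set. Hr, a classical TH target, rose at 24 h after TH in WT mice (log2 fold change 4.57, SE 0.31, adjusted p = 7.2e-10), and in BATKO mice its log2 fold change was 0.50 (adjusted p = 0.96). The TH receptor genes had group means of 108 to 393 (Thra) and 125 to 527 (Thrb) normalized counts over the 15 groups, each scaled within its set. Between BATKO and CTRL mice at 4 °C, at 30 °C, on chow and on HFD, neither gene was called. The log2 fold changes of Thrb were -0.22, -0.45, -0.54 and -1.05 (adjusted p = 0.56, 0.54, 0.47 and 0.14). Those of Thra were -0.37, 0.38, -0.43 and -0.05 (adjusted p = 0.42, 0.54, 0.82 and 0.98). WT and BATKO libraries of the hormone experiment stood apart from each other. There, 1211 of 14178 genes had every WT mouse on PTU at least 4-fold away from every BATKO mouse on PTU, against 0 of 13267 genes between CTRL and BATKO mice at 30 °C. Genotype and library set cannot be told apart in that experiment, and only the responses to TH within each set, and their difference, were tested. Levels are normalized counts, scaled within each experiment (and within WT and within BATKO mice of the hormone experiment), so that a level is compared between groups of the same set only. Differences between groups are log2 fold changes from the quasi-likelihood test of edgeR, with p-values adjusted by Benjamini-Hochberg over all genes tested, and were called at an adjusted p under 0.05.

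Which isoform carried the synthase and phosphorylase messages differed between the experiments and their groups. Shares are within 1 mouse, from counts per kb of exon, and are given as a description. Gys2 made up 4.94% ± 1.95 (SD, n = 4) of the summed Gys1 and Gys2 level in CTRL mice at 30 °C and 51.7% ± 2.77 (SD, n = 3) at 4 °C. The same share was 4.59% ± 1.43 (SD, n = 5) and 57.0% ± 3.49 (SD, n = 4) in BATKO mice. It was highest in the WT mice on PTU, 66.7% ± 2.98 (SD, n = 4), and lowest in the CTRL mice on chow, 4.28% ± 1.67 (SD, n = 4). The groups thus fell apart into those with 41.2 to 69.5% of Gys2 in every mouse (PTU, TH and 4 °C) and those with 2.18 to 16.4% (30 °C, chow and HFD). All mice of the hormone experiment lay in the former set and all of the diet experiment in the latter. For them, treatment and experiment cannot be told apart, and only the temperature experiment had mice in both sets. Within each of these sets, groups that are neighbours in the order of their means overlapped in their mice. Pygm, the muscle phosphorylase, followed the muscle markers of a library and was left out of the phosphorylase share given first. Pygb made up 37.0% ± 6.81 (SD, n = 4) of the summed Pygb and Pygl level in CTRL mice at 30 °C and 5.41% ± 1.42 (SD, n = 3) at 4 °C. On chow it was 41.5% ± 4.78 (SD, n = 4) in CTRL mice, and on HFD 59.7% ± 7.18 (SD, n = 4). In WT mice on PTU it was 9.92% ± 1.75 (SD, n = 4), and 3.46% ± 0.779 (SD, n = 4) at 24 h after TH. In BATKO mice it was 15.4% ± 2.09 (SD, n = 5) on PTU and 13.3% ± 3.31 (SD, n = 5) at 24 h after TH, with overlap. By the length of the longest transcript in place of all exons, the share was 5.84% and 1.98% in WT mice on PTU and at 24 h, and 3.12% in CTRL mice at 4 °C, and 9.28% and 7.97% in BATKO mice on PTU and at 24 h, each over 1.5 times lower, and 25.0% in CTRL mice at 30 °C. With Pygm in the sum, Pygm took 24.6% ± 25.0 (SD, n = 4) in CTRL mice and 35.6% ± 38.5 (SD, n = 5) in BATKO mice at 30 °C, and Pygb 29.0% ± 13.5 (SD, n = 4) and 29.2% ± 17.3 (SD, n = 5). On that scale Pygb was at 10.4 to 63.9% in the mice at 30 °C, on chow or on HFD and at 2.29 to 17.5% in the others, so that the 2 sets of mice overlapped.

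**Figure D1:**
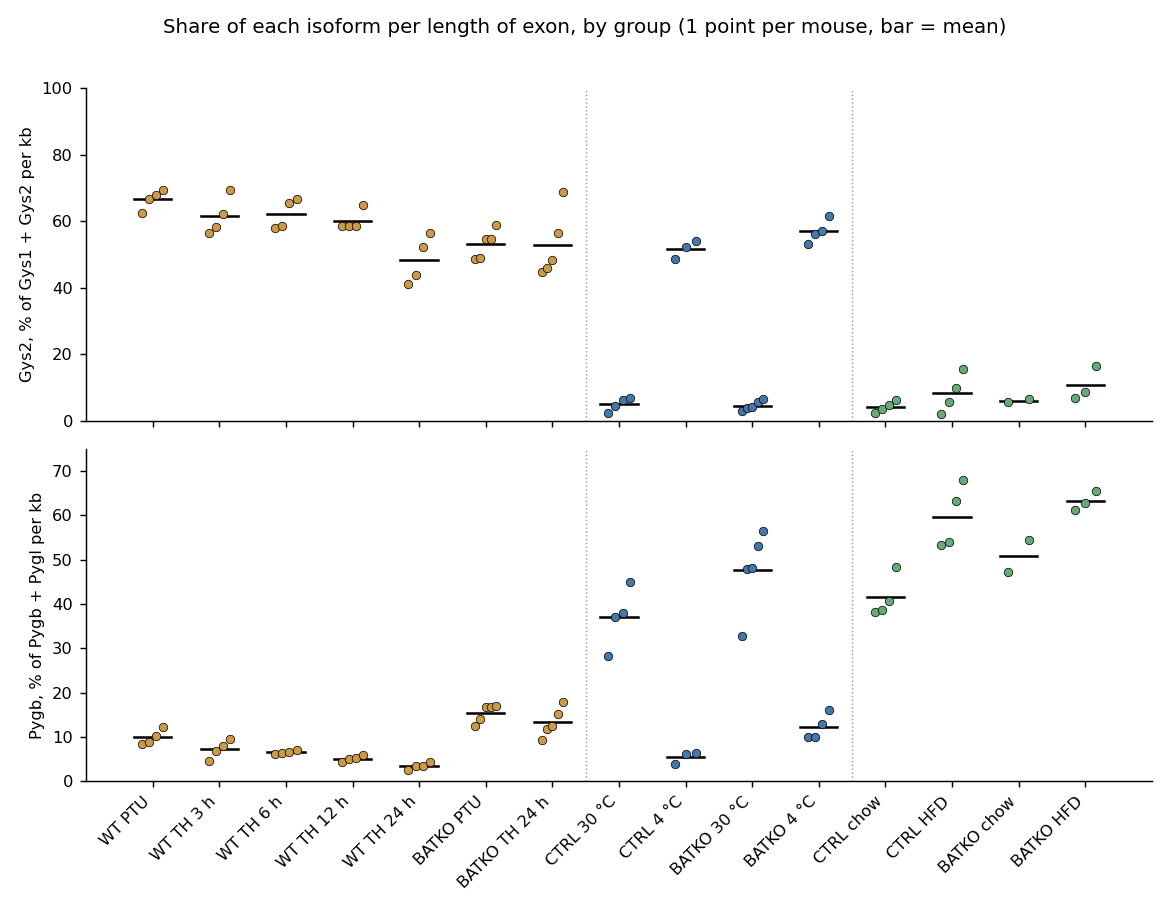
Share of Gys2 in the summed Gys1 and Gys2 level (upper panel, percent, per kb of exon) and of Pygb in the summed Pygb and Pygl level (lower panel, percent, per kb of exon) in the 15 groups, with 1 point per mouse and a bar at the mean. The Gys2 share lies between 41.2 and 69.5% in the mice on PTU, after TH or at 4 °C and between 2.18 and 16.4% in the others, and the Pygb share, with Pygm left out of the sum, is at most 17.9% in the former mice and at least 28.4% in the latter.

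The comparison of 4 °C with 30 °C asks how BAT responds to cold. In CTRL mice, 8 of the 9 glycogen genes differed, 7 higher and 1 lower at 4 °C, where 49.1% of all 13267 genes tested were called (26.5% higher and 22.6% lower). The median log2 fold change was 1.09 over the 9 genes and -0.01 over all genes. The change of Gys2 was the largest of the 9, and Pygb was the gene that fell. Both muscle and liver isoforms of synthase, the branching enzyme, the liver phosphorylase and both targeting subunits rose. In whole tissue, a change in the number of cells of a type cannot be told apart from a change in RNA per cell. The TMM factors also differed by temperature, at 0.716 to 0.826 at 4 °C and 0.934 to 1.29 at 30 °C in CTRL mice. In BATKO mice they were 0.828 to 0.992 at 4 °C and 1.03 to 1.35 at 30 °C. A lower factor gives a higher level at the same share of the library total. Levels, fold changes and overlaps of the temperature experiment are on the TMM scale, and fits on unscaled totals were not run.

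Gys2 (chromosome 6, 142422613 to 142473109, minus strand), the liver isoform of glycogen synthase, was near the bottom of the measured range at 30 °C. The CTRL mice had 13.9, 35.7, 47.5 and 47.9 normalized counts of Gys2 at 30 °C and 1535, 1662 and 1780.5 at 4 °C. The groups were far apart, by a fitted factor of 45.9 (log2 fold change 5.52, SE 0.30, adjusted p = 4.2e-09). The BATKO mice had 26.2, 39.7, 42.7, 46.9 and 56.8 at 30 °C and 1297, 1547, 1557 and 1626 at 4 °C (log2 fold change 5.14, SE 0.26, adjusted p = 4.3e-09). In neither genotype did a mouse at 30 °C come near a mouse at 4 °C. Liver markers summed to 0.398 to 0.677 CPM in the mice at 4 °C, against a Gys2 level of 153 CPM in CTRL mice.

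Gys1 (chromosome 7, 45434844 to 45456619, plus strand), the muscle isoform, shares 310 bases (6.47%) of its exons with Ruvbl2 on the opposite strand, and the strand setting of the counting is not given in the sources used here. In CTRL mice Gys1 was at 999, 1186, 1311 and 1401 at 30 °C and at 2339.8, 2938 and 3155 at 4 °C (log2 fold change 1.20, SE 0.16, adjusted p = 1.5e-05). The temperatures did not overlap. In BATKO mice Gys1 was at 1425, 1467, 1517, 1822 and 1838 at 30 °C and at 1819.7, 1831, 2098 and 2457 at 4 °C. There the temperatures overlapped, and the difference did not pass the test (log2 fold change 0.35, SE 0.14, adjusted p = 0.059), although DESeq2 called it (0.34, adjusted p = 0.044). With edgeR it was called without BATKO mouse 16 (0.39, adjusted p = 0.048) or mouse 17 (0.40, adjusted p = 0.046) at 30 °C. The smaller response of Gys1 in BATKO mice, tested as an interaction, missed the threshold with edgeR (-0.85, 95% interval -1.30 to -0.40, adjusted p = 0.061) and passed it with DESeq2 (adjusted p = 0.0062), without CTRL mouse 5 at 4 °C (-0.97, adjusted p = 0.02) and without BATKO mouse 11 at 4 °C (-0.95, adjusted p = 0.043).

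Ugp2 (chromosome 11, 21321138 to 21371201, minus strand) makes UDP-glucose, the substrate of synthase. It was at 1025, 1202, 1567 and 1711 in CTRL mice at 30 °C and at 2239, 2431 and 2909 at 4 °C (log2 fold change 0.88, SE 0.21, adjusted p = 0.0021). In BATKO mice Ugp2 also rose (log2 fold change 0.61, SE 0.18, adjusted p = 0.013), but not without BATKO mouse 7 at 4 °C, which had the highest level (0.40, adjusted p = 0.074). Gbe1 (chromosome 16, 70313949 to 70569716, plus strand), the branching enzyme, was at 1327, 1937, 2329 and 2656 in CTRL mice at 30 °C and at 3757, 4587 and 4799 at 4 °C (log2 fold change 1.09, SE 0.25, adjusted p = 0.0018). In BATKO mice Gbe1 rose as well, without overlap of the temperatures (log2 fold change 0.85, SE 0.22, adjusted p = 0.0059). Gyg (chromosome 3, 20122084 to 20155317, minus strand), which encodes glycogenin, the primer of the polymer, was at 1581, 1694, 1699 and 1718 in CTRL mice at 30 °C and at 1519.7, 2440.1 and 2776 at 4 °C. It was the member that did not pass the test in CTRL mice (log2 fold change 0.42, SE 0.25, adjusted p = 0.17, 95% interval -0.11 to 0.96), nor did it in BATKO mice (log2 fold change 0.25, SE 0.22, adjusted p = 0.38).

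The 2 phosphorylases moved in opposite directions. Pygl (chromosome 12, 70190811 to 70231488, minus strand), the liver isoform, was at 864, 1129.7, 1366 and 1443 in CTRL mice at 30 °C and at 2956, 4053 and 4232 at 4 °C (log2 fold change 1.64, SE 0.32, adjusted p = 4.7e-04). Every CTRL mouse at 4 °C had more than double the level of any CTRL mouse at 30 °C. In BATKO mice Pygl was at 521, 829, 838, 1084 and 1643 at 30 °C and at 1183, 1653, 2384 and 2477 at 4 °C, with overlap (log2 fold change 0.97, SE 0.28, adjusted p = 0.011). That call was lost when the 2 BATKO libraries at 30 °C and the 1 CTRL library at 30 °C with the most skeletal muscle markers were left out (0.69, adjusted p = 0.069). Pygb (chromosome 2, 150786735 to 150831758, plus strand), the brain isoform, fell in both genotypes. It was at 398, 462, 493 and 580.0 in CTRL mice at 30 °C and at 111, 138 and 195 at 4 °C (log2 fold change -1.71, SE 0.19, adjusted p = 3.2e-06). In BATKO mice it was at 473, 529, 560.0, 661 and 700.0 at 30 °C and at 158, 169.5, 184 and 194 at 4 °C (log2 fold change -1.73, SE 0.17, adjusted p = 1.8e-06). No mouse at 4 °C reached the lowest mouse at 30 °C in either genotype.

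Both targeting subunits rose at 4 °C. Ppp1r3b (chromosome 8, 35375739 to 35388139, plus strand), also called GL, was at 368, 1032, 1338 and 1377 in CTRL mice at 30 °C and at 3759.9, 3923 and 6035 at 4 °C (log2 fold change 2.15, SE 0.37, adjusted p = 1.5e-04). Ppp1r3b was at 905, 916, 1051, 1237 and 1629 in BATKO mice at 30 °C and at 2860.0, 3031, 4338 and 5972 at 4 °C (log2 fold change 1.82, SE 0.32, adjusted p = 3.3e-04). The temperatures did not overlap in either genotype. Ppp1r3c (chromosome 19, 36731731 to 36736653, minus strand), also called PTG, was at 156, 263, 291 and 506 in CTRL mice at 30 °C and at 399, 613 and 818 at 4 °C (log2 fold change 1.01, SE 0.33, adjusted p = 0.017). Its temperatures overlapped in CTRL mice, and the call was lost without CTRL mouse 5 at 4 °C (0.73, adjusted p = 0.1). In BATKO mice, without overlap, Ppp1r3c was at 245, 264, 322, 354 and 408 at 30 °C and at 552, 591, 905 and 1002 at 4 °C (log2 fold change 1.26, SE 0.29, adjusted p = 0.0025).

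**Figure D2:**
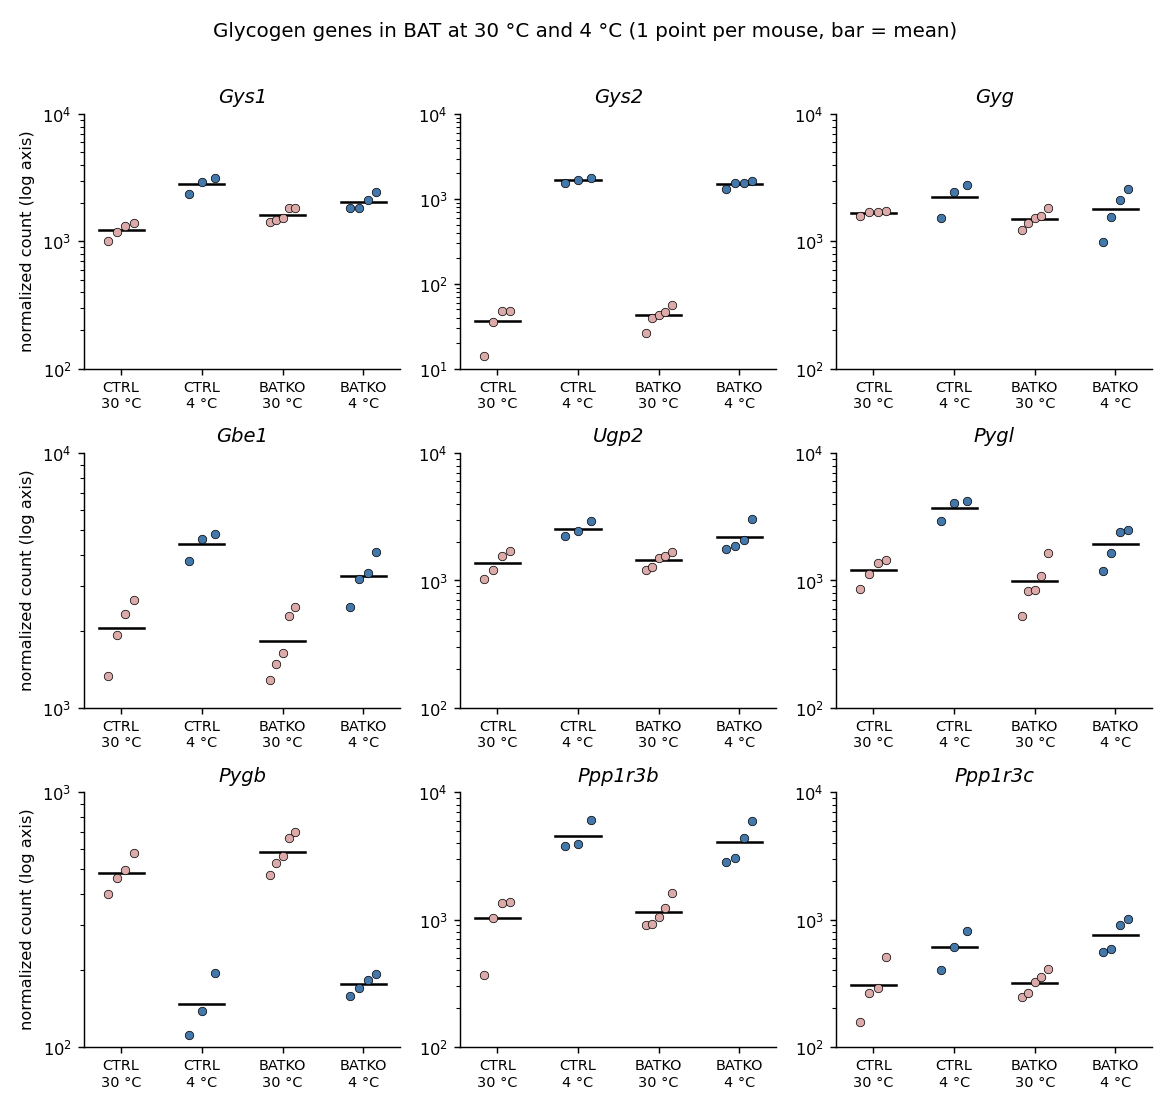
Normalized counts (log axis) of the 9 glycogen genes in CTRL and BATKO mice at 30 °C (pink) and 4 °C (blue), with 1 point per mouse and a bar at the mean. Gys2 lies at 13.9 to 56.8 in all mice at 30 °C and at 1297 to 1780.5 in all mice at 4 °C, and Pygb is the member that is lower at 4 °C.

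In BATKO mice 7 of the 9 genes were called between the temperatures, 6 higher and 1 lower, against 40.3% of all genes (21.4% higher and 18.9% lower). The median log2 fold change was 0.85 over the 9 genes and -0.02 over all genes. None of the 9 was called between BATKO and CTRL mice at 4 °C, where 2 had an unadjusted p under 0.05 and 2.16% of all genes were called. DESeq2 called 1 of them there, Pygl (-0.99, adjusted p = 0.038), for which edgeR gave -0.96 (SE 0.32, adjusted p = 0.13). No BATKO mouse at 4 °C reached the Pygl level of a CTRL mouse at 4 °C. At 30 °C edgeR and DESeq2 called 0 of the 9 between the genotypes, 1 had an unadjusted p under 0.05 (Gys1, 0.40, adjusted p = 0.54, with every BATKO mouse above every CTRL mouse), and 0.00754% of all genes were called. In the test of the difference between the cold responses of the genotypes, 0 of the 9 were called by edgeR and 1 by DESeq2 (Gys1, above), 1 had an unadjusted p under 0.05, and 1.12% of all genes were called. The brown adipocyte markers also differed between the temperatures. They summed to 659 to 3019 CPM at 30 °C and to 9564 to 22828 CPM at 4 °C, with 6 of 6 detected in every mouse. The general adipocyte markers summed to 4421 to 5599.6 CPM at 30 °C and to 8621 to 10949.6 CPM at 4 °C, with 4 of 4 detected in every mouse. Their temperatures did not overlap on this scale, but as CPM of the library total without TMM scaling they did in CTRL mice (4816 to 7247 at 30 °C and 6558 to 7485 at 4 °C) and did not in BATKO mice (5210.1 to 6987 and 7827 to 9517). The immune markers summed to 35.4 to 64.0 CPM at 30 °C and 22.3 to 30.6 CPM at 4 °C in CTRL mice, without overlap, and to 27.4 to 38.0 and 25.7 to 45.5 CPM in BATKO mice. The part of these markers in the results was not tested. Muscle markers summed to 0.639 to 4466 CPM in CTRL mice at 30 °C and to 133 to 604 CPM at 4 °C. Without the libraries highest in muscle markers, 8 of the 9 genes were called in CTRL mice and 6 in BATKO mice.

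Of the 24 other genes of glycogen metabolism, 22 passed the filter on low counts. In CTRL mice 7 of them rose and 4 fell at 4 °C, 11 of the 22 in all, against 49.1% of all genes. The phosphoglucomutase Pgm1, which interconverts glucose 1-phosphate and glucose 6-phosphate, changed by 1.34 (SE 0.16, adjusted p = 6.4e-06), and Gaa, the lysosomal enzyme that degrades glycogen, by 1.18 (SE 0.24, adjusted p = 6.9e-04). Gsk3a, a kinase that inhibits synthase, changed by 1.04 (SE 0.22, adjusted p = 9.9e-04), and Nhlrc1, the ubiquitin ligase malin, by 1.17 (SE 0.38, adjusted p = 0.017). Among those that fell were Epm2a, the glycogen phosphatase laforin (-1.64, SE 0.30, adjusted p = 3.0e-04), Pgm2l1 (-1.30, SE 0.24, adjusted p = 3.3e-04), which makes glucose 1,6-bisphosphate, and Phkg1 (-2.85, SE 0.95, adjusted p = 0.02), a catalytic subunit of phosphorylase kinase. In BATKO mice 4 rose and 6 fell, or 45.5%, against 40.3% of all genes. They included Ppp1r3d, another targeting subunit (1.16, SE 0.16, adjusted p = 4.2e-05), Epm2a (-1.34, SE 0.26, adjusted p = 7.0e-04), Phkg1 (-2.42, SE 0.76, adjusted p = 0.018) and Stbd1, which tethers glycogen to membranes (-1.05, SE 0.27, adjusted p = 0.0058). Phkg1 lost its call in BATKO mice without the libraries highest in muscle markers (-0.77, adjusted p = 0.34) or without mouse 8 or 12 at 4 °C (adjusted p = 0.055 and 0.055). In CTRL mice it lost it without mouse 1 or 2 at 4 °C or mouse 21 at 30 °C (adjusted p = 0.057 to 0.08), and Nhlrc1 without mouse 2 at 4 °C or mouse 20 at 30 °C (adjusted p = 0.052 to 0.076). The muscle phosphorylase Pygm followed the muscle markers of a library, with a correlation of log2 levels of 0.90 over the 16 mice, which share 1 experiment but not depth, and was not called (-1.90, SE 1.41, in CTRL mice). For the 9 genes the same correlation was between -0.21 and 0.41. Overlaps on the opposite strand took 13.6% of the exons of Pgm1, 28.3% of those of Gsk3a and 9.68% of those of Phkg1.

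The sequences upstream of Pygl, Pygb and Ppp1r3c are shown because these 3 genes moved in different combinations. Pygl rose and Pygb fell both at 4 °C and at 24 h after TH, whereas Ppp1r3c rose at 4 °C and fell after TH. They come from RefSeq (GRCm38.p6), which gave promoters for 7 of the 9 genes, and run from base -250 relative to the RefSeq start towards the start, ending before any base that GENCODE counts as an exon of the same gene, 5′ to 3′ on the strand of the gene. They lie at chr12:70227684-70227933 (minus strand), chr2:150786546-150786734 (plus strand) and chr19:36736654-36736854 (minus strand). The stretch of Pygl lies inside the longer span that GENCODE gives this gene, outside its exons, and overlaps the first exon of the lincRNA F730035M05Rik on the opposite strand. Capitals mark the matches, on either strand, to AGGTCA (a half-site of nuclear receptors), TGACG (a half-site of the cAMP response element) and CACGTG (an E-box).
Pygl: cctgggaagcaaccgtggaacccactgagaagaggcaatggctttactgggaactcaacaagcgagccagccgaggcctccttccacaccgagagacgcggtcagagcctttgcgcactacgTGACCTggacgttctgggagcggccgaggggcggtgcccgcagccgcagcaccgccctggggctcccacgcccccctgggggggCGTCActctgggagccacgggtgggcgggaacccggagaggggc
Pygb: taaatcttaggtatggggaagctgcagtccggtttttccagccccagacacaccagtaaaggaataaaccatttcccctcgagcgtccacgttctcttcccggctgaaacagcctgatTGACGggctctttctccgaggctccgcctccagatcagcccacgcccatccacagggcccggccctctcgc
Ppp1r3c: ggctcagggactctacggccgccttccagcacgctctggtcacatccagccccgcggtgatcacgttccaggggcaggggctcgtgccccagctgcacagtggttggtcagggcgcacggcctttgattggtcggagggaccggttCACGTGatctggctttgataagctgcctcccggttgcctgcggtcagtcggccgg
In Pygl, AGGTCA matched at -128 and TGACG at -44. In Pygb, TGACG matched at -132, and in Ppp1r3c, CACGTG at -104. Within 250 bases upstream, AGGTCA was found in 14% of all 32851 promoters of the table, TGACG in 17.8% and CACGTG in 6.02%. A direct repeat of AGGTCA with any 4 bases between the copies (DR4), which contains AGGTCA, was found in 0.0152% and the full element TGACGTCA, which contains TGACG, in 1.55% of all promoters, and in 0 of the 8 promoters of the glycogen genes. The matches are a description of letters and say nothing of binding.

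The time course asks which genes respond to TH in hypothyroid BAT and when. Each time point was compared with the same 4 WT mice on PTU, so the 4 comparisons share their controls. At 3 h, 1 of the 9 genes was called (lower), against 9.19% of the 13003 genes tested (5.1% higher and 4.09% lower). After 6 h there were 3 calls (1 higher, 2 lower), against 23% of all genes (12.1% higher and 10.9% lower). The 3 calls at 12 h were all lower, against 25.7% of all genes (13.6% higher and 12.1% lower). After 24 h 6 of the 9 genes were called, against 32.7% of all genes (17.2% higher and 15.5% lower). The median log2 fold change of the 9 genes at 24 h was 0.02, and over all genes it was 0.01. At 24 h, 2 of the 9 genes were higher (Pygl and Gbe1) and 4 lower (Gys2, Gyg, Pygb and Ppp1r3c). Ppp1r3c was lower at every time point. The earliest call was that of Ppp1r3c, and Gys2, Pygl and Gbe1 were called at 24 h and at no earlier time.

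Ppp1r3c was at 1150.1, 1367, 1384 and 1471 normalized counts in the WT mice on PTU and at 449, 556, 588 and 898 at 3 h after TH. By 6 h it stood at 382, 386, 576 and 580.3, by 12 h at 552, 565, 653 and 665 and by 24 h at 367, 503, 505 and 601. None of the 16 treated mice reached the lowest mouse on PTU. Markers moved over the same times. The brown adipocyte markers summed to 7351 to 9766 CPM on PTU and to 10126 to 16050.1, 12695 to 15390.2 and 11570.1 to 19327 CPM after 3, 6 and 12 h, each without overlap. The adipocyte markers summed to 7872 to 9269.7 CPM on PTU, to 6643 to 8172 CPM after 3 h with overlap, and to 6544 to 7790.1 and 4633 to 6419 CPM after 6 and 12 h without. The endothelial markers summed to 297 to 315 CPM on PTU, to 317 to 342 CPM after 3 h and 226 to 285 CPM after 12 h, without overlap, and to 235 to 305 CPM after 6 h, with overlap. Without TMM scaling, the adipocyte markers at 6 h and the endothelial markers at 3 and 12 h overlapped with those on PTU. The part of these markers in the results was not tested. The log2 fold changes of Ppp1r3c at 3, 6, 12 and 24 h were -1.11 (SE 0.19, adjusted p = 5.5e-04), -1.48 (SE 0.19, adjusted p = 9.2e-06), -1.14 (SE 0.19, adjusted p = 1.0e-04) and -1.45 (SE 0.19, adjusted p = 5.4e-06). The other targeting subunit, Ppp1r3b, was at 4143, 4482, 4728 and 4839.7 on PTU, at 2239, 2665, 3830.2 and 3915 after 3 h and at 5855, 6606, 6806 and 7659 after 12 h. The mice at 3 h lay below and those at 12 h above all mice on PTU, but neither difference passed the test, with log2 fold changes of -0.52 (SE 0.24, adjusted p = 0.17) and 0.57 (SE 0.24, adjusted p = 0.086). The difference at 12 h was called without the filter on low counts (0.57, adjusted p = 0.029) and in a fit of only the groups compared (0.57, adjusted p = 0.0022), and the level at 24 h was above that at 3 h (log2 fold change 0.91, SE 0.24, adjusted p = 0.0096).

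Gyg was at 3377, 3739, 4361 and 4467 on PTU, at 1283, 1479, 1850.2 and 2445 after 12 h and at 1722, 1734, 2192 and 2563 after 24 h. The mice at 12 h and at 24 h lay below all mice on PTU, with log2 fold changes of -1.17 (SE 0.20, adjusted p = 1.7e-04) and -0.96 (SE 0.20, adjusted p = 9.0e-04). At 6 h the mice also lay below those on PTU, but the difference of Gyg missed the threshold (-0.53, SE 0.20, adjusted p = 0.056). It was called by DESeq2, without the filter and in a fit of only the groups compared (adjusted p = 0.039, 0.021 and 0.022). Pygb was at 264, 296, 310.5 and 354 on PTU, at 129, 158, 179 and 183 after 12 h and at 129, 170.3, 185 and 228 after 24 h. Its groups did not overlap with those on PTU at either time, and its log2 fold changes were -0.91 (SE 0.19, adjusted p = 0.0012) and -0.79 (SE 0.19, adjusted p = 0.0027). At 6 h Pygb was also called (-0.52, SE 0.18, adjusted p = 0.046), as was Gys1 (0.34, SE 0.11, adjusted p = 0.034), the 1 member that was higher then. Neither of these 6 h calls was firm. That of Gys1 was lost without PTU mouse B2 or B3 or without 6 h mouse B12, B15 or B17 (adjusted p = 0.052 to 0.1), and that of Pygb without PTU mouse B3, B4 or B5 or 6 h mouse B12 or B15 (adjusted p = 0.068 to 0.15). That of Gys1 was also lost without the filter on low counts (adjusted p = 0.071), and that of Pygb without the mitochondrial genes and in a fit of all 30 mice (adjusted p = 0.05 and 0.053). Mouse B12 had the most muscle markers of the WT mice. Without it, 1 of the 9 genes was called at 6 h, and 1 too without PTU mouse B3 or 6 h mouse B15.

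The genes called at 24 h and not before included both isoforms typical of liver. Gys2 was at 1354, 1382, 1517 and 1531 on PTU and at 551, 574, 838 and 839 at 24 h (log2 fold change -1.05, SE 0.16, adjusted p = 4.0e-05). It was at 1007, 1249, 1378 and 1436 at 12 h, and all mice at 24 h lay below all mice at 12 h (log2 fold change -0.86, SE 0.16, adjusted p = 0.0018). Pygl was at 3170.0, 3881, 4506 and 4627 on PTU, at 3536, 4107, 4134 and 5687 after 12 h and at 6852, 7096, 7253 and 7292 after 24 h. The 4 mice at 24 h were close together and above all others of the time course, both against PTU (log2 fold change 0.82, SE 0.15, adjusted p = 3.3e-04) and against 12 h (log2 fold change 0.71, SE 0.15, adjusted p = 0.0054). Gbe1 was at 5489, 5679.8, 6259 and 6365 on PTU and at 6557, 6932, 9081 and 10455 at 24 h (log2 fold change 0.47, SE 0.13, adjusted p = 0.0091), without overlap. Ugp2 was at 1879.6, 2103, 2154 and 2311 on PTU and at 2147, 2212, 2656 and 2979 at 24 h and passed the test at no time. Between 3 and 24 h, 5 of the 9 genes differed (against 21.2% of all genes, 11.4% higher and 9.88% lower), Gys2 and Gyg lower and Gbe1, Pygl and Ppp1r3b higher at 24 h. Of these, Gyg (-0.61, SE 0.20, adjusted p = 0.034) lost its call without 3 h mouse B9 or B11 or 24 h mouse B24, B26 or B28 (adjusted p = 0.052 to 0.12), and Gbe1 (0.45, SE 0.13, adjusted p = 0.019) without 3 h mouse B9 or B11 or 24 h mouse B24 or B26 (adjusted p = 0.053 to 0.085), in a fit of only the groups compared and in one of all 30 mice (adjusted p = 0.088 and 0.053). Between 12 and 24 h, 2 of the 9 differed (Gys2 lower and Pygl higher, above), against 11.4% of all genes (5.58% higher and 5.8% lower). The brown adipocyte markers summed to 7351 to 9766 CPM on PTU and to 10030.2 to 18028 CPM at 24 h after TH, without overlap. The adipocyte markers went the other way, from 7872 to 9269.7 CPM on PTU to 3700.2 to 4062 CPM at 24 h, also without overlap. Their part in the results was not tested.

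**Figure D3:**
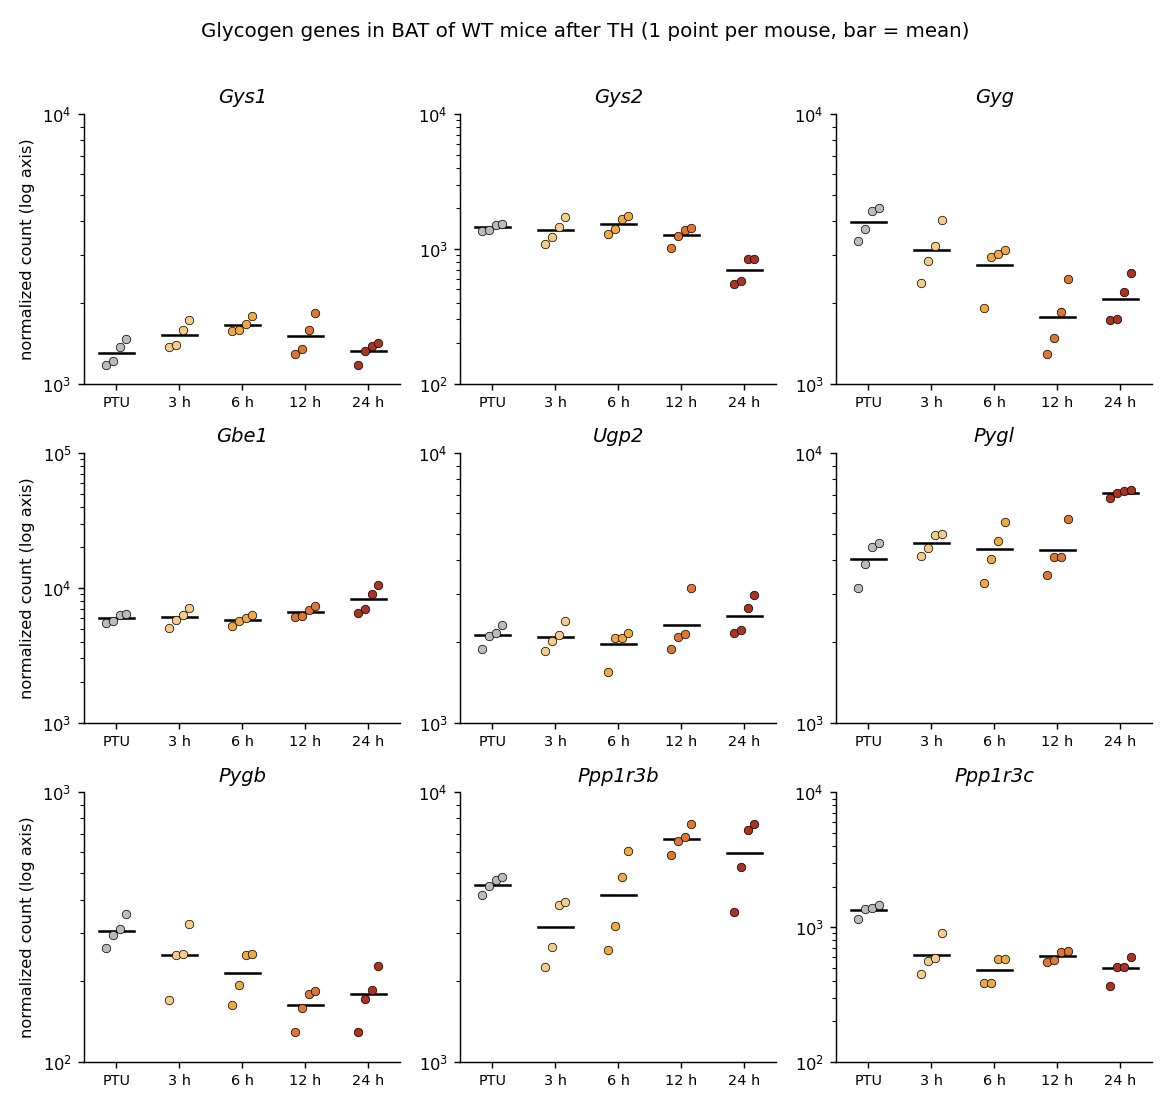
Normalized counts (log axis) of the 9 glycogen genes in WT mice on PTU and at 3, 6, 12 and 24 h after TH, with 1 point per mouse and a bar at the mean. Ppp1r3c lies at 1150.1 to 1471 on PTU and at 367 to 898 after TH, and Pygl at 24 h lies at 6852 to 7292, above all other mice.

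Of the 22 other glycogen genes tested in WT mice, 1 was higher and 3 were lower at 3 h, 3 were higher and 4 lower at 6 h, 4 were higher and 3 lower at 12 h, and 6 were higher and 3 lower at 24 h. These are 18.2, 31.8, 31.8 and 40.9% of the 22, against 9.19%, 23%, 25.7% and 32.7% of all genes. Ppp1r3d, a targeting subunit like Ppp1r3c, was lower at every time, with log2 fold changes of -1.14 (SE 0.21, adjusted p = 0.0013) at 3 h and -1.75 (SE 0.21, adjusted p = 2.4e-06) at 24 h. Stbd1 was lower as well, with log2 fold changes of -1.19 (SE 0.20, adjusted p = 2.1e-04) after 6 h, -1.44 (SE 0.21, adjusted p = 3.1e-05) after 12 h and -1.22 (SE 0.20, adjusted p = 9.2e-05) after 24 h. Ppp1r3g, a further targeting subunit, was higher at 3 h (2.94, SE 0.69, adjusted p = 0.0092). It was lower at 24 h than at 3 h (-3.79, SE 0.77, adjusted p = 0.0013). Phkg1 at 24 h (1.03, SE 0.39, adjusted p = 0.047) lost its call without PTU mouse B3 or B5 or 24 h mouse B26 or B28 (adjusted p = 0.1 to 0.19), in a fit of only the groups compared and in one of all 30 mice (adjusted p = 0.099 and 0.069). Between 3 and 24 h 10 of the 22 were called (7 higher, 3 lower), against 21.2% of all genes, and between 12 and 24 h 1 was, against 11.4%. Pygm was higher at 24 h than at 3 h (2.66, SE 0.69, adjusted p = 0.0086) and than at 12 h (2.83, SE 0.72, adjusted p = 0.015, not called without 12 h mouse B21, adjusted p = 0.054), and Ppp1r3a, the muscle targeting subunit, was higher at 24 h than at 3 h (2.47, SE 0.87, adjusted p = 0.047, with calls lost without 3 h mouse B7, B8 or B11 or 24 h mouse B26, B27 or B28, adjusted p = 0.058 to 0.13, and with DESeq2 or all 30 mice, adjusted p = 0.12 and 0.063). Over the 20 WT mice the log2 levels of Pygm and Ppp1r3a correlated with the summed muscle markers at 0.95 and 0.93, and those of the 9 genes at -0.24 to 0.27. Muscle markers summed to 3.21 to 233 CPM in the mice at 3 h, 3.63 to 301 in those at 12 h and 264 to 1134 in those at 24 h, and their part in these calls was not tested. Gaa (0.48, SE 0.19, adjusted p = 0.056) was not called at 24 h.

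In BATKO mice the question was whether the genes still respond to TH at 24 h. EdgeR called 0 of the 9 genes and 0 of all 14178 genes it tested (0%), DESeq2 called 0 of the 9 and 0 of the 14129 it tested, and 2 of the 9 (Gys1 and Ppp1r3c) and 673 of all genes had an unadjusted p under 0.05 with edgeR. Gys2 was at 974, 975, 1112, 1179 and 1285 in BATKO mice on PTU and at 722, 757, 777, 895 and 1645 at 24 h after TH, with the highest value in mouse 15 and overlapping groups (-0.20, 95% interval -0.57 to 0.16). Pygl was at 3893, 4847, 5247, 5654 and 6314 and at 3319, 4060.0, 5069, 6372 and 6401 (-0.05, 95% interval -0.38 to 0.29). Gyg was at 1076, 1238, 1314, 1356 and 1458 and at 858, 1054, 1174, 1338 and 1696 (-0.08, 95% interval -0.44 to 0.29). In all 3 genes the treated mice overlapped with the mice on PTU. Ppp1r3c was at 757, 1144, 1170.2, 1435 and 1761 and at 479.6, 755, 768, 942 and 1518 (-0.49, 95% interval -0.95 to -0.03), and its groups overlapped too.

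The difference between the WT and the BATKO response was tested as an interaction over all 30 mice. It was called for 3 of the 9 genes, 1 with a higher and 2 with a lower WT response, against 12.3% of all genes (7.15% higher and 5.12% lower). These were Gys2 (WT minus BATKO -0.84, SE 0.27, adjusted p = 0.037), Gyg (-0.88, SE 0.27, adjusted p = 0.03) and Pygl (0.86, SE 0.25, adjusted p = 0.02). For Gbe1 (0.61, SE 0.21, adjusted p = 0.051) and Ppp1r3c (-0.95, SE 0.34, adjusted p = 0.064) it missed the threshold, and DESeq2 called both, 5 of the 9 in all. With edgeR, Gbe1 was called at a minimum mean count of 50 (adjusted p = 0.043). It was also called in 6 of 18 fits that left out 1 mouse (adjusted p = 0.021 to 0.044). Ppp1r3c was called without the filter on low counts (adjusted p = 0.032). It was also called without BATKO mouse 11 on PTU or mouse 8 at 24 h (adjusted p = 0.028 and 0.019). The interaction of Pygl was lost without WT mouse B3 on PTU (0.76, adjusted p = 0.058). That of Gyg was lost without WT mouse B2 or B3 on PTU, WT mouse B24 or B26 at 24 h, or BATKO mouse 10 or 15 at 24 h (adjusted p = 0.058 to 0.073). That of Gys2 was lost without WT mouse B2, B3 or B5 on PTU, WT mouse B27 or B28 at 24 h, BATKO mouse 3 or 4 on PTU, or BATKO mouse 10 or 15 at 24 h (adjusted p = 0.052 to 0.09), and without BATKO mouse 15 its value was -0.54. It was also lost in a fit of only the groups compared and without the libraries high in muscle markers (adjusted p = 0.068 and 0.063). The number of called genes was 0 without WT mouse B3 on PTU, 1 without WT mouse B2 on PTU or BATKO mouse 10 or 15 at 24 h, and 5 without BATKO mouse 11 on PTU. Among the 23 other glycogen genes tested, 5 had a called interaction, 2 in the direction of a higher WT response and 3 of a lower one, against 12.3% of all genes. Among the 3 were Ppp1r3d (-1.44, SE 0.31, adjusted p = 0.0028) and Stbd1 (-1.03, SE 0.25, adjusted p = 0.0073). The brown adipocyte markers summed to 1783 to 3785 CPM in the BATKO mice and to 7351 to 18028 CPM in the WT mice on PTU and at 24 h. WT and BATKO libraries were scaled apart here, and genotype and library set cannot be told apart between them. The adipocyte markers summed to 7616 to 8971 CPM on PTU and 6534 to 10732 CPM at 24 h in BATKO mice, with overlap, whereas in WT mice they were lower at 24 h without overlap (above). Their part in the interaction was not tested.

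**Figure D4:**
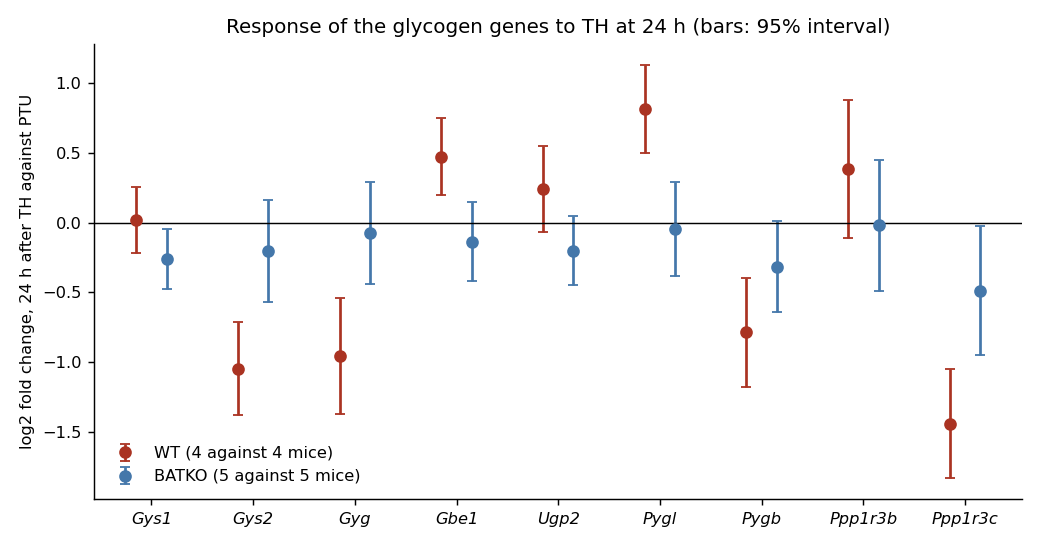
Log2 fold change at 24 h after TH against PTU of the 9 glycogen genes in WT mice (red) and BATKO mice (blue), with 95% intervals of the edgeR fit. In WT mice the intervals of Gys2, Gyg, Pygb and Ppp1r3c lie below 0 and those of Gbe1 and Pygl above 0, and in BATKO mice those of Gys1 (-0.47 to -0.05) and Ppp1r3c (-0.95 to -0.03) exclude 0 before adjustment.

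The diet comparison asks how BAT responds to a short HFD. In CTRL mice 2 of the 9 genes were called, both lower on HFD, where 3.94% of all 12932 genes were called (1.89% higher and 2.04% lower). The median log2 fold change was -0.18 over the 9 genes and 0.01 over all genes. Pygl was at 633, 912, 950.0 and 970.1 on chow and at 318, 347, 539 and 559 on HFD (log2 fold change -0.97, SE 0.18, adjusted p = 0.012). The groups did not overlap. Gbe1 was at 1826, 1958, 2098 and 2192 on chow and at 1193, 1222, 1443 and 1607 on HFD (log2 fold change -0.56, SE 0.12, adjusted p = 0.025), again without overlap. The call of Gbe1 was lost without chow mouse 1 or 2 or HFD mouse 10 or 11 (adjusted p = 0.057 to 0.081) and without the 4 libraries high in muscle markers (-0.68, adjusted p = 0.052), whereas Pygl kept its call in all 8 fits that left out 1 mouse. Gys2 was at 14.2, 21.8, 36.3 and 36.7 on chow and at 13.0, 30.8, 58.1 and 92.4 on HFD, and this difference did not pass the test (95% interval of the log2 fold change -0.25 to 1.92, adjusted p = 0.36).

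In BATKO mice 0 of the 9 genes were called between HFD and chow by edgeR or DESeq2, 2 had an unadjusted p under 0.05, and 0.0696% of all genes were called. The group on chow had 2 mice. Pygl was at 508 and 615 on chow and at 316, 346 and 359.7 on HFD (log2 fold change -0.72, SE 0.24, adjusted p = 0.2), and Gbe1 was at 1564 and 1931 and at 1116, 1260.0 and 1468 (log2 fold change -0.45, SE 0.16, adjusted p = 0.23). In both genes the diets did not overlap. Without the filter on low counts, Pygl was called (adjusted p = 0.027). Between BATKO and CTRL mice, edgeR and DESeq2 called 0 of the 9 genes on HFD, where 0 had an unadjusted p under 0.05, and 0 on chow, where 2 had (Pygl and Ppp1r3b). EdgeR called 0% of all genes in either comparison, with 691 genes on HFD and 1024 on chow at an unadjusted p under 0.05, and DESeq2 called 9 and 33 genes. The responses of the genotypes to HFD differed in 0 of the 9 genes by edgeR and DESeq2, none with an unadjusted p under 0.05, and 0% of all genes were called (740 had an unadjusted p under 0.05, and DESeq2 called 0). Of the 22 other glycogen genes, 2 were lower on HFD in CTRL mice, against 3.94% of all genes called, among them Epm2a (-0.68, SE 0.15, adjusted p = 0.025), which is named here after its value was seen. Neither call stood in every fit that left out a mouse, and 0 were left without chow mouse 1 or 2 or HFD mouse 10 or 11. Cell type markers also moved with the diet. The immune markers summed to 32.7 to 40.0 CPM on chow and 47.0 to 163 CPM on HFD in CTRL mice, and to 96.4 to 125 and 31.9 to 84.2 CPM in BATKO mice, in both without overlap and in opposite directions. The brown adipocyte markers summed to 2286 to 4006 CPM on chow and 3599 to 5535 CPM on HFD in CTRL mice, with overlap, and to 2677 to 3734 and 4954 to 6880.2 CPM in BATKO mice, without overlap. Their part in the results was not tested.

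**Figure D5:**
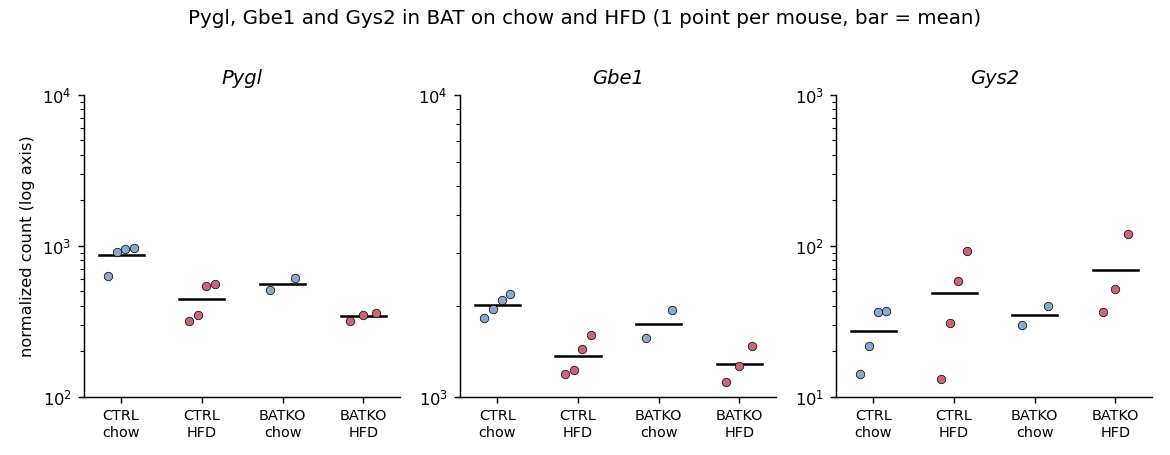
Normalized counts (log axis) of Pygl, Gbe1 and Gys2 in CTRL and BATKO mice on chow (blue) and HFD (red), with 1 point per mouse and a bar at the mean. Pygl lies at 633 to 970.1 in CTRL mice on chow and at 318 to 559 on HFD, and Gys2 stays at 13.0 to 119.7 in all 13 mice.

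Set side by side, Pygl was higher at 4 °C (1.64 in CTRL mice) and at 24 h after TH (0.82) and lower on HFD (-0.97). Pygb was lower at 4 °C (-1.71) and at 24 h after TH (-0.79). Gbe1 was higher at 4 °C (1.09) and at 24 h after TH (0.47) and lower on HFD (-0.56), like Pygl. Gys2 and Ppp1r3c were higher at 4 °C (5.52 and 1.01) and lower at 24 h after TH (-1.05 and -1.45).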

How the data were processed

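BAT RNA of 59 mice was extracted with Trizol and sequenced from total RNA libraries (Lexogen SENSE kit) on a NextSeq 500. The authors aligned reads to GRCm38 (Bowtie in the paper, Bowtie2 2.3.2.2 and mm10 in the submitters' processing notes), removed alignments of low quality and counted reads per gene with htseqcount. They deposited raw counts without normalization. The annotation and strand setting are not given in the sources used here. All columns were matched to mice by their labels.

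Total counts per mouse were between 7612059 and 18073627. Counts were analysed in R 4.3.3 with edgeR 4.0.16 (TMM, quasi-likelihood, mean normalized count above 10, Benjamini-Hochberg adjustment, threshold 0.05, no fold threshold). Fits covered the 20 WT mice (time course), all 30 mice (BATKO response and interaction), the 16 mice of the temperature or the 13 of the diet experiment. The 9 genes passed the filter in every fit. Standard errors came from the F statistic. The fits were tested on simulated data. Alternatives were DESeq2 1.42.0, RLE size factors, no filter, a minimum of 50, no mitochondrial genes, only the groups compared, all 30 mice, 1 mouse left out and, added after the marker levels were seen, without libraries whose summed muscle markers exceeded 5 times the median of their set. No 2 libraries of a group were alike within sampling noise (lowest chi-square per degree of freedom 6.81). The labels number the libraries singly, and each was taken as 1 mouse, so that p-values measure the spread between these libraries, which may be partly technical. Shares and levels per kb used the union of exons in GENCODE M21, in which 55327 of the 55341 symbols were found.

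The members and gene lists were chosen with earlier results of these data known. All 9 members are named, other glycogen genes where called with a log2 fold change of 1 or more in size, and Pygm and Gaa always. 1 further gene, named by the rule whatever its values and called nowhere with a log2 fold change of 1 or more, is not reported here.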

Additional observations from a re-analysis of the deposited data

Results flagged for a closer look

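The responses of WT and BATKO mice to TH passed the test of their difference for 3 of the 9 genes. The WT minus BATKO difference was -0.84 for Gys2, -0.88 for Gyg and 0.86 for Pygl on the log2 scale, in sets of libraries that stood apart from each other. These calls were not stable, since leaving out 1 mouse gave 0 to 5 called genes of the 9 (0 without WT mouse B3 on PTU), Gys2 lost its call in 9 of 18 such fits, Gyg in 6 and Pygl in 1, and the value of Gys2 was -0.54 without BATKO mouse 15.

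Each of the 9 genes was looked at in each of the 12 groups of 4 or 5 mice. In 7 of these 108 combinations, which share their mice, 1 mouse lay far from the others by Dixon's ratio (its gap to the nearest mouse over the range of the group). Chance gives about 1 in 20, here 5.4. In the BATKO mice at 24 h after TH, Gys2 was 1645 in mouse 15, against 722 to 895 in the others (ratio 0.812). In the WT mice at 6 h, mouse B17 was lowest for Gyg (1910.3, ratio 0.866) and for Ugp2 (1548, ratio 0.849). In the CTRL mice on chow, Pygb was highest in mouse 3 (438, ratio 0.857) and Ppp1r3b in mouse 1 (1587, ratio 0.934). In the CTRL mice on HFD, Ppp1r3b was lowest in mouse 10 (840.2, ratio 0.942) and Ppp1r3c highest in mouse 9 (904, ratio 0.835).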

How the results depend on the processing

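The calls of the 9 genes in CTRL mice at 4 °C, in BATKO mice at 4 °C and at 3, 12 and 24 h after TH in WT mice stayed within 1.5 times their number under every alternative. The number of the 9 called was 5 (against 3) for the interaction with TH with DESeq2, 1 (against 0) with DESeq2 for BATKO against CTRL mice at 4 °C and for the difference of their cold responses, and 1 (against 0) without the filter for HFD in BATKO mice. Without the libraries high in muscle markers it was 1 at 6 h (against 3) and 1 for HFD in CTRL mice (against 2). Of the other glycogen genes, 2 were called at 3 h with a minimum of 50 (against 4), 3 between 12 and 24 h without the filter and with DESeq2 (against 1) and 6 on HFD in CTRL mice without the filter (against 2). The causes were not tested. With 1 mouse left out, the number of the 9 called was 1 to 3 at 6 h, 3 to 5 between 3 and 24 h, 2 to 3 between 12 and 24 h, 0 to 5 for the interaction with TH, 0 to 1 for the difference of the cold responses and 1 to 2 on HFD in CTRL mice. For the other glycogen genes it was 2 to 6 at 3 h, 4 to 7 at 6 h, 5 to 8 at 24 h, 7 to 12 between 3 and 24 h, 0 to 5 between 12 and 24 h, 7 to 11 at 4 °C in CTRL mice, 6 to 10 in BATKO mice and 0 to 3 on HFD in CTRL mice. The log2 fold changes checked kept their sign, except those of Gyg and Pygl for TH in BATKO mice, neither of them called. These ran from -0.23 to 0.03 and from -0.15 to 0.08. For Gyg the value was above 0 without BATKO mouse 8 after TH (0.031). For Pygl it was above 0 without BATKO mouse 4 on PTU (0.037) or mouse 10 (0.077) or 15 (0.016) after TH. The log2 fold changes of Hr, Thra and Thrb, of Pygm at 4 °C, of Gaa at 24 h after TH and of Epm2a on HFD were not checked. Counts of the other glycogen genes moved by over 1.5 times without WT mouse B3 on PTU (2 at 3 h and 5 at 24 h), WT mouse B5 on PTU (4 at 6 h), 24 h mouse B28 (5 at 24 h), 12 h mouse B19 (2) or B21 (0) and 24 h mouse B24 (2) or B27 (5) between 12 and 24 h, CTRL mouse 1 or 2 at 4 °C (7), BATKO mouse 8 at 4 °C (6), HFD mouse 7 (1) and the mice named above for HFD (0). Of the 9 genes, 3 were called between 3 and 24 h without 3 h mouse B9 or 24 h mouse B24. No paired analysis was possible because the mouse numbers that recur between groups belong to different mice. With the longest transcript in place of the union of exons, the share of Gys2 in WT mice on PTU was 60.6%, in CTRL mice at 4 °C 45.1% and at 30 °C 3.84%.

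Depth limits Gys2 at 30 °C and on chow or HFD, where it had 13.0 to 120 normalized counts, so that its differences there rest on few counts. Groups of 2 to 5 mice limit all comparisons.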

Other observations

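The genes whose log2 levels were most like those of 3 members over the 20 WT mice of the hormone experiment are given as a description, with their correlation over those mice and then over the 16 mice of the temperature experiment. The mice of each experiment share its groups and are not independent points. Gys2 was most like Acadm, a dehydrogenase of fatty acid oxidation (0.93 and 0.93), Gstz1 (0.93 and 0.04) and the carbonic anhydrase Car3 (0.92 and -0.74). Likeness to Acadm was thus similar in both experiments, whereas with Car3 it had the opposite sign. Pygl was most like G6pdx (0.86 and 0.84), the first enzyme of the pentose phosphate pathway, Elmo2 (0.86 and 0.58) and G6pd2 (0.85 and 0.65). G6pd2 is a near-identical copy of G6pdx, so that reads may be shared between them. Ppp1r3c was most like Tmem165 (0.88 and -0.27), Abca8a (0.88 and -0.79) and Marcks (0.87 and -0.63), and all 3 had the opposite sign in the temperature experiment.

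Gaa, the lysosomal enzyme of glycogen breakdown, had 235 ± 40.2 and 531 ± 166 in CTRL mice at 30 °C and 4 °C, and 306 ± 90.0 and 374 ± 52.7 in BATKO mice (normalized counts, mean ± SD).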
